A study of Homo sapiens with 6 samples.

Results

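GABRP (ENSG00000094755), which encodes a GABA-A receptor subunit called pi, and ENSG00000253348, an antisense RNA gene whose exons overlap it on the other strand, made up 2 of the 57209 rows of each deposited count table. The 2 rows and their sum were chosen because their counts were far lower with an sgRNA against SOX9 than with a control sgRNA in these same libraries, so their differences are given as descriptions, with no test. Both passed the filter on low counts, among 7959 rows that did. In the SOX9 sgRNA libraries GABRP had 3, 4 and 2 counts, against 18, 21 and 22 in the control libraries, and ENSG00000253348 had 6, 16 and 22 counts, against 633, 605 and 573.

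The cells were MB157, an established human line of triple-negative breast cancer, which lacks the hormone receptors and amplified HER2 of other breast tumours. Per the sample titles all of them carried Cas9, while the series' design text describes them as stably expressing SOX9. Which of these is meant is not settled by the labels, and either would hold for both groups. Some cells received an sgRNA against SOX9, a transcription factor with an HMG box, and the others a control sgRNA, both for 4 days, after which the top 50% of sgRNA-expressing cells were sorted and their total RNA was sequenced with a kit that keeps the strand. Each group had 3 libraries from 1 cell line, which the labels call technical replicates, so that spreads and p-values measure differences between libraries and not between independent experiments.

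GABA-A receptors are chloride channels built from subunits arranged as a ring, and they open when the transmitter GABA binds. Most subunits belong to neurons, whereas the pi subunit is known from epithelia such as uterus, lung and breast, and GABRP is a familiar marker of mammary luminal progenitors and of basal-like breast cancer. In basal-like breast cancer cells GABRP has been connected with ERK signalling and basal keratins.

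GABRP lies at chr5:170190354-170241051 on the plus strand of GRCh37, with 16 merged exons of 4621 bases. ENSG00000253348 lies at chr5:170174051-170215654 on the minus strand, with 6 merged exons of 1191 bases. The exons meet in a single stretch of 77 bases at chr5:170215578-170215654, inside a GABRP exon of 95 bases and at the outer end of an opposite exon of 96 bases. Each row was the only one with exons opposite the other, and 0 rows on the same strand shared exons with either. In GENCODE release 29, which is on GRCh38, the shared stretch held 42 untranslated and 35 coding bases of GABRP and sat in an exon of 9 of its 10 transcripts. The coding part is shown because it is where the 2 rows of this report touch. It lies at chr5:170788616-170788650 of GRCh38 on the plus strand, and capitals mark the start codon of GABRP.
GABRP start codon in the overlap: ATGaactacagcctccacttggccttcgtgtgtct

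Since the 2 rows had lower counts together, the sequence before 1 annotated start of GABRP is also shown. Judged by its distance from the overlap, this stretch lies inside the span of the GABRP row, downstream of its first exon. It is from RefSeq on GRCh38.p14, at chr5:170783475-170783690 on the plus strand, all in lower case because no searched motif was found in it.
GABRP upstream sequence: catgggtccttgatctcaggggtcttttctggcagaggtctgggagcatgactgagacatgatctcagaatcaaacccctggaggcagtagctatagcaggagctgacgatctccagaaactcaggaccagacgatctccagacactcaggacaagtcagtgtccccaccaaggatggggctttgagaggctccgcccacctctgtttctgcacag
Short forms of the motif that SOX proteins bind were sought on both strands of the 300-base window of the promoter table that begins with this stretch. The form ACAAAG had 0 matches there and was present in 16.1% of the 35116 promoters of the table. A related form, with ACAATG as its letters, had 0 matches and was in 10.8% of promoters, and a further one, AACAAT, had 0 matches and was in 10.1%. At least 1 of the 3 was in 29.1% of promoters. The last 2 motifs overlap by 5 letters. The window had a GC content of 56.0%, against 57.5% over all promoters, with 5 CpG and no TATAA. These letters speak for this window of 1 annotated start, and GENCODE lists 10 distinct starts for the 10 GABRP transcripts. No window of ENSG00000253348 was searched.

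Library totals ran from 776125 to 1018854 counts in the SOX9 sgRNA libraries and from 777960 to 881655 in the control libraries, a low depth at which few counts fall on most rows. More genes had at least 1 count with the SOX9 sgRNA, 20207 to 21082, than with the control sgRNA, 18326 to 18818. The part of this difference in the results below was not tested.

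The strand setting limits what a row's count means. Fragments were counted with strand setting 1, per the file headers, and in control cells 319 of 343 protein-coding genes with a noncoding row opposite them had under 50% of the pair's counts on their own row. If the setting was the reverse of the kit's orientation, which was not tested, a gene's own row would leave out the fragments of its own RNA, and the row opposite it would hold those from the shared exon bases. The count of a gene below is therefore the count of its row, not a level of its RNA. The row of SOX9, the targeted gene, which has no exon opposite it, had 37, 39 and 60 counts with its sgRNA and 38, 52 and 44 counts with the control sgRNA, groups that overlap, with a log2 fold change of -0.22 (standard error, SE, 0.26, edgeR adjusted p = 0.70). This row therefore did not separate the groups by their labels. Under a reversed strand setting it would not measure SOX9 RNA, so it checks the labels only within that limit, and reads over the cut site were not analysed here. Across all tested rows, edgeR's quasi-likelihood test at a Benjamini-Hochberg adjusted p below 0.05 called 479 rows lower and 238 higher with the SOX9 sgRNA, 6.02% and 2.99% of 7959 and 9.01% in either direction. With libraries scaled by their totals alone the split was 249 lower and 625 higher and the median log2 fold change over all rows was 0.19, against 0.01 with TMM scaling.

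The GABRP row had a middling count in control cells and a few counts per library with the SOX9 sgRNA. After TMM scaling its 3 libraries with the SOX9 sgRNA stood at 3.61, 5.20 and 1.95 CPM (the count relative to a library's total, scaled) and its 3 control libraries at 24.0, 26.7 and 31.6 CPM. The highest SOX9 sgRNA library was thus far below the lowest control library. For 12.8% of all tested rows the groups did not overlap in the lower direction, by any margin. The means were 3.59 ± 1.63 CPM with the SOX9 sgRNA and 27.4 ± 3.86 CPM in control cells (SD, n = 3 each). The fitted log2 fold change was -2.93 (SE 0.58). With 9 counts in all with the SOX9 sgRNA and 61 in control cells, the scaled sum with the SOX9 sgRNA was 12.5% of that in control cells, with an exact 95% interval of 5.47% to 25.4% that covers counting error only. By log2 fold change GABRP stood at place 17 from the lowest of the 7959 tested rows. It passed the filter through its control counts, and this place comes from the contrast by which it was chosen.

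The ENSG00000253348 row carried far more counts than the GABRP row. Under a reversed strand setting these could be GABRP fragments from the 77 shared bases, which was not tested. Its SOX9 sgRNA libraries stood at 7.23, 20.8 and 21.4 CPM and its control libraries at 845, 768 and 824 CPM. The control libraries lay close together, while the first SOX9 sgRNA library stood below the other two. The means were 16.5 ± 8.02 CPM with the SOX9 sgRNA and 812 ± 39.7 CPM with the control sgRNA, and the log2 fold change was -5.59 (SE 0.17). This was place 2 from the lowest among all tested rows and place 1 among the 2456 rows whose average log2 CPM reached 6. Both places come from the contrast by which the row was chosen. Its average log2 CPM reached 6 only through the control libraries, at 812 CPM against 16.5 CPM with the SOX9 sgRNA. The counts with the SOX9 sgRNA, 44 against 1811 in control cells, came after scaling to 2.06% of the control level, with an exact 95% counting interval of 1.495% to 2.78%. By mean CPM the row held place 6551 of 7959 with the SOX9 sgRNA and place 169 in control cells, while GABRP held place 7952 and place 4552.

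**Figure D1:**
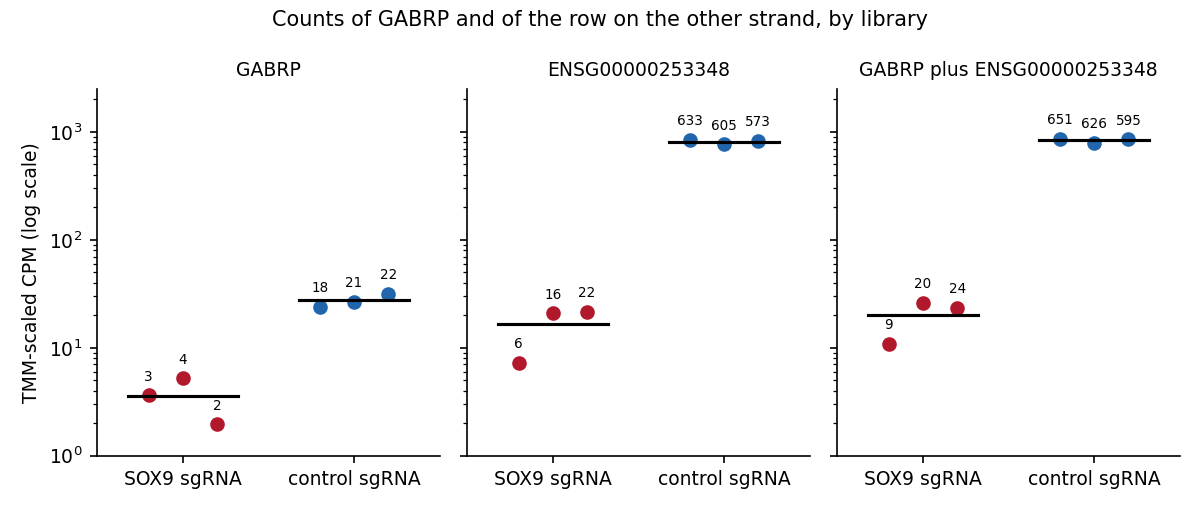
Scaled counts of GABRP, of ENSG00000253348 and of their sum in each library, on a log axis of TMM-scaled CPM, with SOX9 sgRNA libraries in red and control libraries in blue. Numbers beside the points are raw counts and black lines are group means. In all 3 panels the SOX9 sgRNA points lie below the control points, by a wider gap for ENSG00000253348 than for GABRP.

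The plot of scaled counts by library shows the 3 control points of each panel bunched together and a wider relative spread among the SOX9 sgRNA points, which rest on between 2 and 24 counts. Per kilobase of exon, GABRP was at 0.776 ± 0.352 CPM with the SOX9 sgRNA and 5.94 ± 0.835 CPM in control cells. On the same scale ENSG00000253348 was at 13.8 ± 6.73 CPM with the SOX9 sgRNA and 682 ± 33.3 CPM in control cells. The row of the antisense RNA gene had the higher value per length in both groups, with all 1191 of its exon bases taken as the length, although how many of them gave counts was not tested. All cells were of 1 line, but they were sorted, and in such bulk libraries fewer cells with the RNA and less RNA per cell cannot be told apart.

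The sum of the rows is the measure that does not depend on how a fragment in the shared exon was assigned to a strand. It was 9, 20 and 24 counts with the SOX9 sgRNA and 651, 626 and 595 counts with the control sgRNA. Scaled, this was 20.1 ± 8.10 CPM with the SOX9 sgRNA and 840 ± 39.5 CPM in control cells, and refitting the model with the sum in place of the 2 rows gave a log2 fold change of -5.37 (SE 0.16). The control level was 41.6 times the SOX9 sgRNA level, with an exact 95% counting interval of 31.6 to 55.7. Leaving out any 1 library gave -5.56 to -5.09 for the sum, whose rows were chosen from these same libraries.

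The share of the summed counts that lay on the GABRP row was higher with the SOX9 sgRNA, on few counts. GABRP took 33.3%, 20.0% and 8.33% of the summed counts in the SOX9 sgRNA libraries, with 95% Wilson intervals of 12.1% to 64.6%, 8.07% to 41.6% and 2.32% to 25.9%. In the control libraries it took 2.77%, 3.36% and 3.70%, and the intervals reached 5.54% at most. The groups did not overlap in these shares, and in how many other pairs this was so was not counted. The lowest SOX9 sgRNA interval covers all 3 control values, and the 3 SOX9 sgRNA shares rest on 3, 4 and 2 counts of GABRP. Pooled over libraries the share was 17.0% with the SOX9 sgRNA, interval 9.20% to 29.2%, and 3.26% with the control sgRNA, interval 2.55% to 4.16%.

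**Figure D2:**
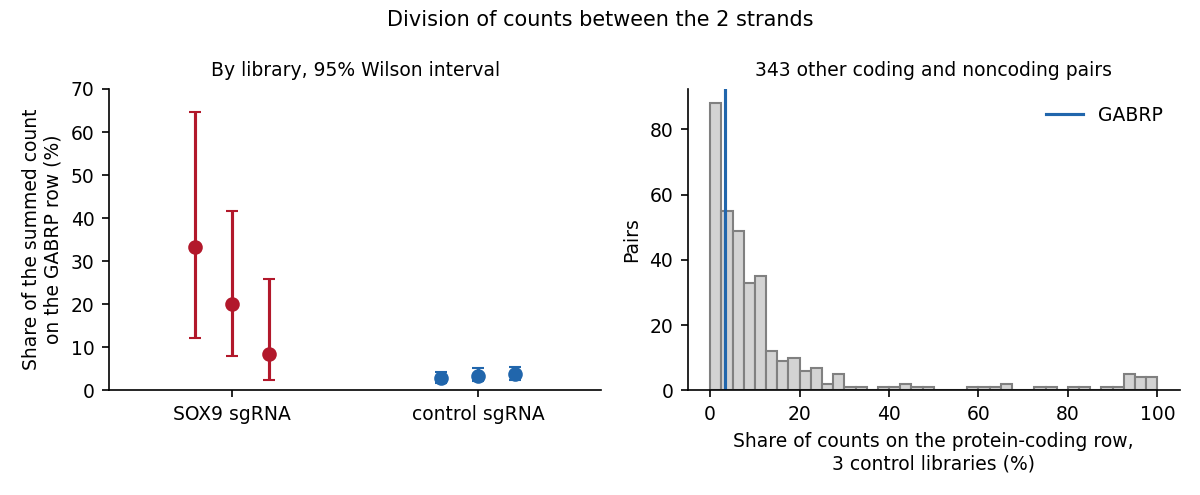
Left, share of the summed count that fell on GABRP in each library, in percent, with 95% Wilson intervals, SOX9 sgRNA libraries in red and control libraries in blue. Right, number of other pairs of a protein-coding row and a noncoding row on the other strand by the share of control counts on the protein-coding row, with a line at GABRP. Most pairs lie at low shares, as GABRP does.

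A low share on the protein-coding row was common in these tables, as the histogram of pairs shows. Among 343 other protein-coding genes with exactly 1 noncoding row on the other strand and at least 300 summed control counts, a comparison added after the counts had been seen, the median share on the protein-coding row was 7.02% with the SOX9 sgRNA and 6.46% in control cells. In control cells the quartiles were 2.40% and 12.3%, and 114 pairs had a lower share than GABRP. Both rows were tested in 222 of these other pairs. In 120 of them the noncoding row had the lower log2 fold change of the pair, as at GABRP. GAPDH, a glycolytic gene transcribed in nearly every cell, had 90, 66 and 126 counts with the SOX9 sgRNA and 110, 103 and 90 with the control sgRNA, while ENSG00000269968 opposite it had 7851, 7249 and 8908 with the SOX9 sgRNA and 10184, 11002 and 9611 with the control sgRNA. From which strand the RNA behind the ENSG00000253348 row was transcribed, and how many of its counts came from the 77 shared bases, was not tested, since the tables give 1 count for each row.

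The surroundings of GABRP on chromosome 5 held few counts. Of the 32 other rows within 1 Mb, 11 of them protein-coding, 18 had 0 counts in all 6 libraries and 4 had 10 or more in all. Over all 32 rows together the SOX9 sgRNA libraries had 188 counts and the control libraries 178. NPM1, the nucleophosmin gene and the only one of them to pass the filter, had 52, 23 and 47 counts with the SOX9 sgRNA and 29, 49 and 49 with the control sgRNA, overlapping groups with a log2 fold change of -0.30 (edgeR adjusted p = 0.61). KCNIP1, the gene of a potassium channel interacting protein and the nearest protein-coding row upstream, had 0 counts with the SOX9 sgRNA and 2, 4 and 1 with the control sgRNA. RANBP17, a nuclear transport gene downstream, had 2, 3 and 4 counts with the SOX9 sgRNA and 0, 4 and 11 with the control sgRNA. LCP2, an adaptor gene of blood cells, had 2, 7 and 10 counts with the SOX9 sgRNA and 3, 2 and 4 with the control sgRNA. TLX3, a homeobox gene, had 2, 6 and 20 counts with the SOX9 sgRNA and 2, 8 and 2 with the control sgRNA. These rows overlapped between groups or held too few counts to be tested.

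**Figure D3:**
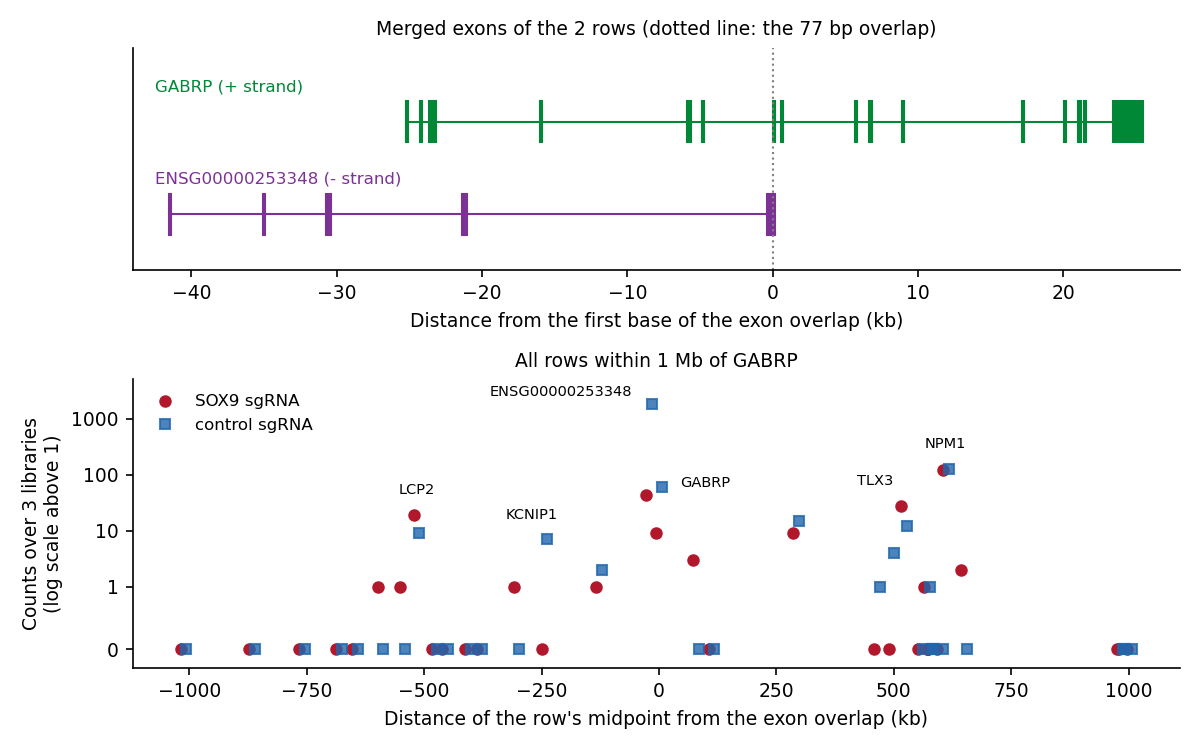
Top, merged exons of GABRP and ENSG00000253348 by distance in kb from the first base of their overlap. Bottom, counts summed over 3 libraries, on an axis that is logarithmic above 1, of each row within 1 Mb, with SOX9 sgRNA as red circles and control sgRNA as blue squares drawn slightly apart. The large gap between the groups is at GABRP and ENSG00000253348, while NPM1 had 122 and 127 counts.

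The map of the locus shows that the rows share a small part of their exons near the middle of GABRP and that the antisense RNA gene reaches upstream past the first exon of GABRP. In the lower panel the 2 chosen rows stand apart from rows at or near 0.

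The rows of the other subunits of GABA-A receptors were almost without counts. Of 18 other subunit genes, which form the alpha, beta, gamma, delta, epsilon, theta and rho classes, 17 had a row and 0 passed the filter. A total of 13 had 0 counts in all 6 libraries, among them GABRB2, a subunit of common neuronal receptors. All 17 together had 1 to 2 counts per library with the SOX9 sgRNA and 0 per library in control cells, and the 4 rows opposite subunit genes had 0 to 1 and 0. In control cells GABRP was thus the only one of the 18 subunit rows with a count above 0. Since most subunit genes had no row opposite them, a reversed strand setting would leave their own fragments uncounted, so these zeros do not show that the subunits were absent.

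Around the receptor, lists of genes for GABA handling, receptor traffic and chloride transport, together with mammary and other cell type markers, held 131 rows of their own besides the members, of which 31 were tested. Of these, 3 were lower and 2 higher, 9.68% and 6.45%, against 6.02% and 2.99% over all rows, with a median log2 fold change of -0.05, against 0.01. The rows opposite listed genes numbered 37, of which 19 were tested, 4 were lower and 1 was higher, with a median of 0.05. These were 21.1% and 5.26% of the tested opposite rows, against 6.02% and 2.99% over all rows. The lists were drawn up with results of these data known, so these shares are no separate evidence.

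Among genes of GABA synthesis, breakdown and transport, GLUL, the glutamine synthetase gene, had 11, 8 and 15 counts with the SOX9 sgRNA and 16, 9 and 10 with the control sgRNA. These groups overlap, and the log2 fold change was -0.29 (standard error 0.51, edgeR adjusted p = 0.83). GPLD1, opposite ALDH5A1, which breaks down succinic semialdehyde, had -0.21 (edgeR adjusted p = 0.64). GAD2 and SLC32A1, which make GABA and load it into vesicles in neurons, were at 0 in all libraries. GAD1, the other glutamate decarboxylase gene, was below the filter with 8, 1 and 11 counts with the SOX9 sgRNA and 7, 3 and 12 with the control sgRNA.

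The genes of the GABA-B receptor, the slower G protein-coupled receptor of GABA, gave 0 tested rows of 5. GABBR1 had 4, 6 and 17 counts with the SOX9 sgRNA and 4, 3 and 2 with the control sgRNA. KCTD12, an auxiliary subunit, had 9, 16 and 19 counts with the SOX9 sgRNA and 6, 5 and 6 with the control sgRNA, values that do not overlap but lie below the filter.

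Genes that assemble and carry GABA-A receptors showed no call in 3 tested rows of 17. GABARAPL2, of the GABARAP family that binds the gamma subunit, had a log2 fold change of 0.36 (edgeR adjusted p = 0.68). UBQLN1, a ubiquitin-like protein that steadies the receptor, had 0.03 (adjusted p = 0.98), and CLPTM1, which holds receptors back in the endoplasmic reticulum, had -0.11 (adjusted p = 0.90). The rows opposite, UBQLN1-AS1 at -0.09 and STRADB, opposite TRAK2, at 0.32, did not pass either.

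Chloride cotransporters set the chloride gradient that gives GABA-A currents their direction. SLC12A4, the potassium chloride cotransporter KCC1, rose to 110, 89 and 95 counts with the SOX9 sgRNA, against 46, 37 and 59 with the control sgRNA, a log2 fold change of 0.82 (standard error 0.22, edgeR adjusted p = 0.0070). This call was lost without SOX9 sgRNA library 1, at 0.69 with an adjusted p of 0.081, and without control library 2, at 0.62 with an adjusted p of 0.098. SLC12A4 also shares 336 exon bases on its own strand with LCAT, which had 257 counts with the SOX9 sgRNA and 111 with the control sgRNA, so its value is uncertain. WNK1, a kinase that regulates these transporters, had a log2 fold change of -0.01 (adjusted p = 0.99), and OXSR1, the kinase it acts through, had -1.03 (SE 0.41, adjusted p = 0.12). SLC12A5-AS1, opposite the neuronal cotransporter gene SLC12A5, had -0.52 (adjusted p = 0.36).

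The rows of markers of luminal progenitors, the cells for which GABRP is known in the mammary gland, did not move together. Under a reversed strand setting, the own rows of these and the following markers would leave out the fragments of their genes' RNA. The 12 luminal progenitor rows had 52 to 94 counts per library with the SOX9 sgRNA and 53 to 100 in control cells. FOLR1 and PIGR were at 0 in all. Of 4 tested rows 0 fell and SLPI, a secreted protease inhibitor, rose, with 18, 13 and 26 counts with the SOX9 sgRNA and 1, 5 and 5 with the control sgRNA and a log2 fold change of 2.09 (standard error 0.59, edgeR adjusted p = 0.012). The call for SLPI was lost without control library 1, at 1.64, without SOX9 sgRNA library 1, at 2.07, and without SOX9 sgRNA library 3, at 1.93. ALDH1A3, an aldehyde dehydrogenase, had -0.55 (adjusted p = 0.45), PROM1, the CD133 glycoprotein, -0.16 (adjusted p = 0.92) and CLDN4, a tight junction protein, -0.51 (adjusted p = 0.55).

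On the strand opposite the same markers, ENSG00000234477, which overlaps the keratin gene KRT23, fell. It had 18, 35 and 49 counts with the SOX9 sgRNA and 81, 75 and 67 with the control sgRNA, a log2 fold change of -1.37 (standard error 0.25, edgeR adjusted p = 3.48e-05). ALDH1A3-AS1 had 0.49 (adjusted p = 0.19). KIT, the receptor that marks luminal progenitors, was below the filter with 2, 2 and 6 counts with the SOX9 sgRNA and 8, 17 and 6 with the control sgRNA.

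Markers of mature luminal and basal cells bracket the progenitor state. Mature luminal markers had 34 to 55 counts per library with the SOX9 sgRNA and 32 to 39 in control cells, with AREG, TFF1 and TFF3 at 0 in all. XBP1, at -0.24 (edgeR adjusted p = 0.87), and PRLR, the prolactin receptor, at -0.96 (SE 0.47, adjusted p = 0.23), did not pass. Basal markers had 206 to 274 counts per library with the SOX9 sgRNA and 174 to 194 in control cells, with TP63 and OXTR at 0 in all. MYLK, myosin light chain kinase, had -0.18 (adjusted p = 0.63) and KRT5, a basal keratin, 0.41 (SE 0.18, adjusted p = 0.17).

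ACTA2-AS1, opposite the smooth muscle actin gene of myoepithelial cells, rose to 38, 32 and 37 counts with the SOX9 sgRNA, against 7, 6 and 3 with the control sgRNA, a log2 fold change of 2.49 (standard error 0.42, edgeR adjusted p = 8.20e-06). ACTA2 itself had 0, 3 and 3 counts with the SOX9 sgRNA and 0 with the control sgRNA. PCSK7, opposite TAGLN, had 0.51 (adjusted p = 0.47).

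Of the basal keratin and ERK genes with which GABRP has been connected, 6 of 15 own rows were tested and 0 were called. The ERK kinase gene MAPK3 had a log2 fold change of 0.23, their activating kinases MAP2K1 and MAP2K2 had 0.10 and 0.01, and ETV4, a transcription factor downstream of ERK, had 0.26. The 3 tested rows opposite genes of this list, EGFR-AS1 at 0.05, ENSG00000261351 opposite MAP2K1 at 0.11 and DHX8 opposite ETV4 at -0.38, were not called. ENSG00000261351 shares 583 exon bases on its own strand with SNAPC5, so its counts are uncertain. KRT14, the partner of KRT5, was below the filter with 1, 0 and 6 counts with the SOX9 sgRNA and 14, 9 and 16 with the control sgRNA. Other keratin rows of the list below the filter had the opposite order. KRT17 had 7, 4 and 10 counts with the SOX9 sgRNA and 0, 3 and 0 with the control sgRNA, and KRT6B had 17, 8 and 10 with the SOX9 sgRNA and 8, 6 and 1 with the control sgRNA. The groups did not overlap at KRT14 and KRT17, and none of these rows was tested.

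Markers of breast cancer epithelium had counts in all 7 rows and all of them were tested. KRT19, a simple epithelial keratin, fell to 134, 141 and 232 counts with the SOX9 sgRNA, against 243, 251 and 217 with the control sgRNA. Its log2 fold change was -0.74 (standard error 0.13, edgeR adjusted p = 1.83e-05), and the raw counts overlapped while the scaled values did not. KRT7 had -0.97 (standard error 0.29, edgeR adjusted p = 0.018), and KRT7-AS opposite it -0.94 (SE 0.07, adjusted p = 3.70e-17). The KRT7 call was lost under library totals, at -0.79, without control library 1, at -0.86, and without SOX9 sgRNA library 1 or library 3, at -0.96 in both cases. ENSG00000260798 opposite CDH1 had -0.23 (SE 0.07, adjusted p = 0.039), a call near the threshold. It was lost under library totals, at -0.04, and with DESeq2, no filter, a stricter filter or the replicate number as a block. Without any 1 library other than SOX9 sgRNA library 3 it was also lost, at -0.25 to -0.18. KRT8, at 0.11, ERBB2, at -0.08, CDH1, at -0.05, and EPCAM, at -0.68 (adjusted p = 0.11), did not pass.

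**Figure D4:**
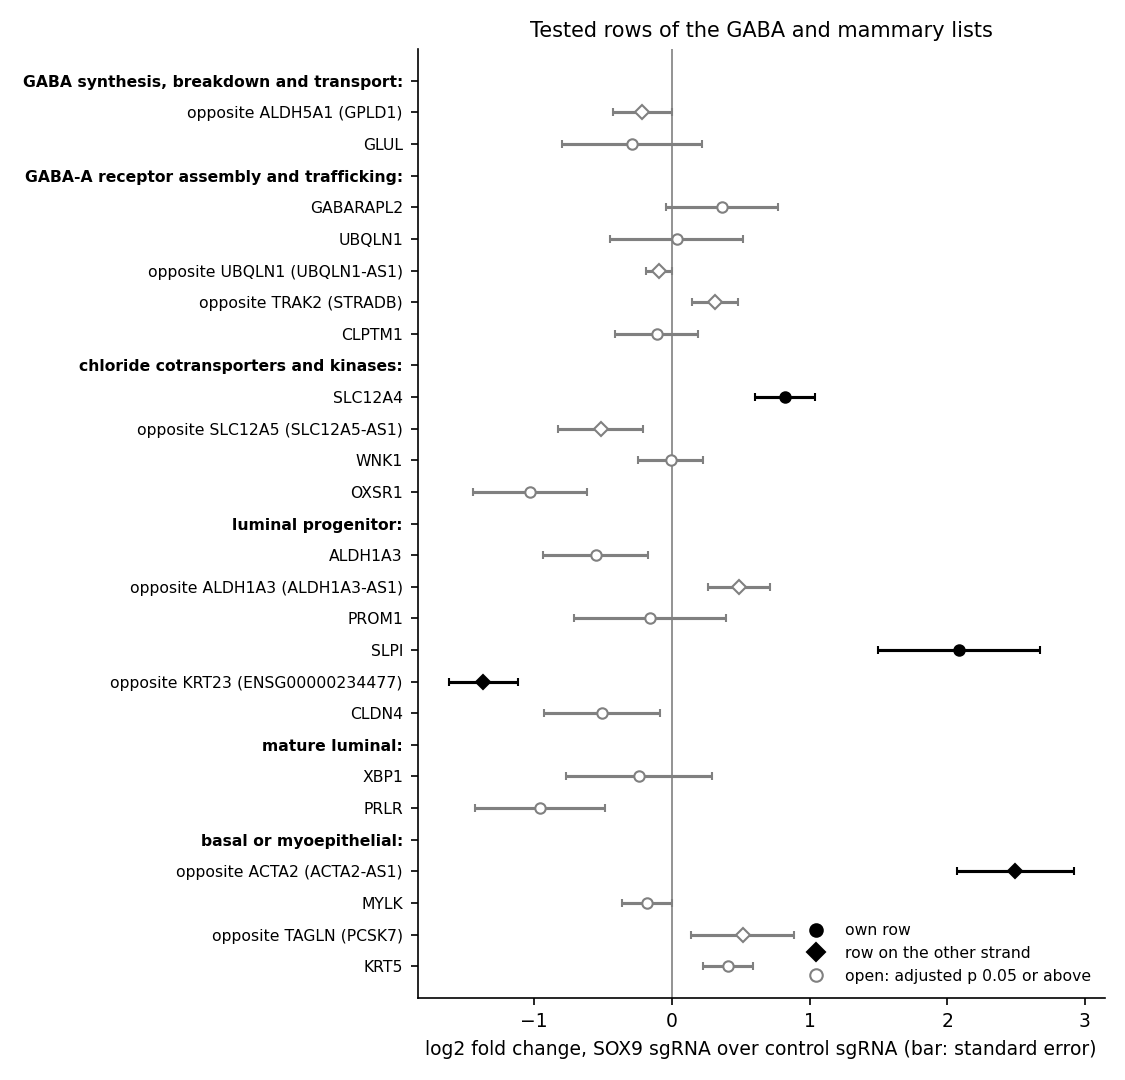
Log2 fold changes of SOX9 sgRNA over control sgRNA for tested rows of the GABA and mammary lists, with bars of 1 standard error. Circles are rows of listed genes, diamonds are rows on the other strand, and filled symbols passed an edgeR adjusted p of 0.05. The row opposite KRT23 lies to the left of 0, and SLC12A4, SLPI and ACTA2-AS1 to the right.

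The plot of list rows has filled symbols on both sides of 0 and most symbols open, and the value of GABRP, -2.93, would lie left of all of them. Other SOXE factors, the subfamily of SOX9, gave no tested own row besides SOX9. SOX10 had 6, 6 and 15 counts with the SOX9 sgRNA and 6, 9 and 8 with the control sgRNA, SOX8 was at 0, and POLR2F, opposite SOX10, had -0.49 (edgeR adjusted p = 0.41).

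Markers of other cell types were low. Fibroblast markers had 4 to 14 counts per library with the SOX9 sgRNA and 2 to 5 in control cells over 7 rows, with COL3A1 and LUM at 0. Leukocyte markers had 49 to 54 counts with the SOX9 sgRNA and 21 to 33 in control cells over 6 rows, with CD3E and LYZ at 0. CD68, a macrophage marker, had 31, 32 and 36 counts with the SOX9 sgRNA and 18, 11 and 21 with the control sgRNA, a log2 fold change of 0.74 (edgeR adjusted p = 0.19), and ENSG00000233223 opposite it had 0.05. CD68 shares 1789 exon bases on its own strand with another row, so its counts are uncertain. Endothelial markers had 0 to 1 counts per library in both groups, with VWF and CDH5 at 0.

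The rows most like the summed GABRP rows were sought by Pearson's r of log2 CPM over the 6 libraries among 7317 other rows whose average log2 CPM reached 4. All 6 points share the same libraries, totals and group difference, so r mainly orders rows by how cleanly the 3 SOX9 sgRNA libraries stood apart from the 3 control libraries, and 163 rows reached 0.95. GABRP alone correlated with the sum at 0.97 and ENSG00000253348 at 1.00. Both are parts of that sum, and ENSG00000253348 supplied 1811 of its 1872 control counts, so high values were given in advance.

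The 6 highest rows are given with the protein-coding gene opposite each. How many of the 7317 compared rows lay opposite such a gene was not counted, so this is no particular trait of the 6. ANKRD36BP1, a pseudogene opposite SFT2D2, came first at r = 0.999 with 426, 420 and 557 counts with the SOX9 sgRNA and 608, 644 and 576 with the control sgRNA, a log2 fold change of -0.62. ENSG00000269495, opposite the kallikrein protease gene KLK6, followed at 0.998 with 1, 3 and 3 counts with the SOX9 sgRNA and 25, 22 and 23 with the control sgRNA, a log2 fold change of -3.49. The others were ENSG00000254208 opposite E2F5, with a log2 fold change of -1.502, POLR1HASP opposite POLR1H, with -0.83, ENSG00000272030 opposite S100A1, with -2.25, and ENSG00000259279 opposite THBS1, with -1.83. ENSG00000272030 shares 342 exon bases on its own strand with S100A13, so its counts are uncertain.

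**Figure D5:**
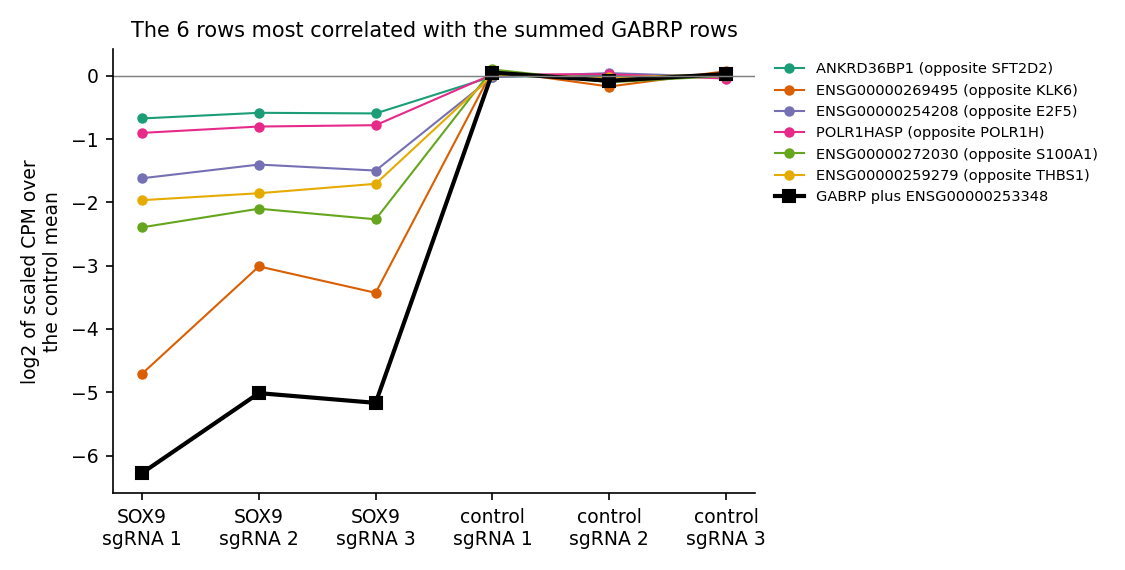
Log2 of scaled CPM in each library relative to the control mean, for the summed GABRP rows in black and the 6 rows most correlated with them. The SOX9 sgRNA libraries are on the left. The summed GABRP rows are the lowest line in all 3 SOX9 sgRNA libraries.

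In the plot of similar rows, the GABRP sum and every other line had their lowest point in SOX9 sgRNA library 1. The drop was larger for the sum and for ENSG00000269495, which had only 1, 3 and 3 counts there. The other lines were flat among the SOX9 sgRNA libraries by comparison. Choosing rows by r with the sum over these same libraries favours such a shared order. The sizes differed widely, from -0.62 for ANKRD36BP1 to -5.37 for the GABRP sum, so a high r did not mean a like amount of change.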

How the data were processed

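The authors deposited 1 table of raw counts of fragments per gene for each library. They used STAR 2.7.10a, featureCounts of Subread 1.6.2 and GRCh37, per the submitters' processing notes. Per the file headers, exons of Ensembl GRCh37 genes without ribosomal RNA and mitochondrial genes were counted with strand setting 1, and a fragment could count for every gene it overlapped. Libraries were made with a SMARTer stranded Pico kit, per the labels' protocols.

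Counts were tested with edgeR 4.0.16 in R 4.3.3 (filterByExpr, TMM, robust quasi-likelihood), with Benjamini-Hochberg adjustment over 7959 rows and a threshold of 0.05. CPM is relative to tested rows and scaled by TMM. Log2 fold changes are SOX9 sgRNA over control sgRNA. Intervals are at 95% and cover counting error only. Symbols were found for 51452 and biotypes (GENCODE) for 51789 of 57209 rows. In simulated counts the fit found 14% of 50 genes changed 1.5-fold, 62% of those changed 2-fold and 90% of those changed 4-fold, and called 4 of 7764 unchanged genes.

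The rows, the 14 gene lists (135 of 137 entries found) and the tests were chosen with earlier results of these data known. Named were SOX9, called genes of each list with up to 4 others of highest average log2 CPM, the same within 1 Mb with up to 6 others, and the 6 rows most correlated with the sum. Other list genes in the text, mostly low or at 0, were picked after their values were seen. A few genes that these rules name are not reported here.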

Additional observations from a re-analysis of the deposited data

How the results depend on the processing

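The direction of GABRP, ENSG00000253348 and their sum was lower with the SOX9 sgRNA under every scaling, filter, tool and left-out library tried. The rows were chosen for this difference in these same libraries, so a kept direction is no separate evidence. For GABRP the log2 fold change of -2.93 became -2.75 with library totals and -2.98 with DESeq2 1.42.0, and -3.27 to -2.61 over the fits that left out 1 library, the extremes being without SOX9 sgRNA library 2 and without library 3. For ENSG00000253348 these values were -5.41, -5.60 and -5.87 to -5.26, and for the sum -5.19 and -5.38 with the left-out range given above. DESeq2 called 473 rows, 343 lower and 130 higher, against 717 with edgeR, and fits without 1 library called 525 to 637. Called own rows of the lists numbered 5, and 2 to 5 without 1 library: 2 without SOX9 sgRNA library 1 and 3 without control library 1. No neighbouring row was called in edgeR or under any alternative.

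Same-numbered libraries did not deviate together (correlations of -0.0034, 0.0075 and -0.0027 over 7003 rows), so the numbers were not taken as pairs. With the replicate number as a block the log2 fold changes were -2.93 for GABRP, -5.60 for ENSG00000253348 and -5.38 for the sum, and 574 rows were called. Among named rows the block ended the call of ENSG00000260798, at -0.23 with an edgeR adjusted p of 0.057, and no other.

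Of 46 named rows under all alternatives, 501 values kept their direction and their side of the threshold, 19 lost a call and 4 gained one, the last for STRADB, ALDH1A3-AS1, KRT5 and KRT8 under library totals. The other 24 changed sign, all for rows that were not called. Library totals gave 0.090 for UBQLN1-AS1, 0.074 for CLPTM1, 0.18 for WNK1, 0.022 for PROM1, 0.0021 for MYLK and 0.098 for ERBB2. No filter gave -0.019 for MAP2K2, a stricter filter 0.0051 for WNK1, and the block -0.0029 for MAP2K2. Over the fits without 1 library, CLPTM1 ran from -0.35 to 0.028, WNK1 from -0.17 to 0.090, PROM1 from -0.57 to 0.20, MAP2K2 from -0.11 to 0.15, KRT8 from -0.033 to 0.18, ENSG00000261351 from -0.14 to 0.26 and ENSG00000233223 from -0.057 to 0.22. The cause was not tested. In the simulated counts, with changed genes drawn from rows whose average log2 CPM reached 4, most changes of 1.5-fold were not found. Rows with many counts were called at changes under 2-fold, such as KRT7-AS at -0.94.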
